A study of Arabidopsis thaliana with 9 samples.

Results

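Transcripts of the RAN GTPase and importin alpha genes of Arabidopsis thaliana were read in the sperm cells and vegetative nuclei of growing pollen tubes. The set holds 10 genes of the 32833 loci in the count table: RAN1 (AT5G20010), RAN2 (AT5G20020), RAN3 (AT5G55190), IMPA-1 (AT3G06720), IMPA-2 (AT4G16143), IMPA-3 (AT4G02150), IMPA-4 (AT1G09270), IMPA-5 (AT5G49310), IMPA-6 (AT1G02690) and IMPA-9 (AT5G03070). The set was chosen by 2 measured values, the fall of RAN1 counts in semi in vivo sperm and the presence of IMPA-5 counts in sperm without any in vegetative nuclei, so those differences are described without a test. RAN4 (AT5G55080), IMPA-7 (AT3G05720) and IMPA-8 (AT5G52000) belong to the same families and are given where totals need them.

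The 9 libraries, 3 in each of 3 groups, hold RNA of sperm cells or of vegetative nuclei that were sorted by fluorescence from pollen tubes of a transgenic line. The line carries MGH3p::MGH3-GFP, in which the promoter of a sperm histone H3 gene (listed as HTR10) drives its own GFP fusion, and ACT11p::H2B-mRFP, in which an actin promoter active in the vegetative cell drives a red histone. The genotype is labelled WT in every library, and plants were raised for 8 weeks in short days before flowering was induced in long days. In vitro sperm and in vitro vegetative nuclei came from tubes grown for 6 h in liquid medium. Semi in vivo sperm came from tubes that grew 2 h in wild-type Col-0 pistils and another 4 h after those pistils were cut and laid on the medium, again 6 h in all. The sperm fraction is whole cells and the vegetative fraction is nuclei, so a difference between them cannot be told apart from one between nuclear and whole-cell RNA. In such bulk libraries, fewer cells of a type and less RNA per cell also cannot be told apart.

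RAN is a small GTPase that gives nuclear transport its direction. It is kept in the GTP form inside the nucleus and turned to the GDP form in the cytoplasm by RAN GTPase-activating protein, RANGAP. Importin alpha binds the nuclear localisation signal of a cargo and, joined to importin beta, carries it through the pore; RAN-GTP then releases the cargo in the nucleus. In a pollen tube the vegetative nucleus and the sperm cells travel together through the shared vegetative cytoplasm, and the sperm have a nucleus and a transport machinery of their own.

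Library totals ran from 13768069 to 41118337 counts, and 6299 to 14203 genes reached 1 CPM (a count scaled to a library total of 1000000). In vitro sperm library 2 stood apart, with 14203 such genes and 19.5 CPM summed over 10 pistil markers, against 0.0304 to 4.42 CPM in the remaining sperm. The fractions were read against 11 sperm cell markers and 12 markers of the vegetative cell. The sperm markers summed to 18640 to 22219 CPM in in vitro sperm, 25047 to 27687 CPM in semi in vivo sperm and 132 to 381 CPM in vegetative nuclei. The sperm groups did not overlap in this sum, and 1 of 10 sperm markers tested was called higher in semi in vivo sperm. GEX2, a sperm surface gene, lay at or near 0 in every library (at most 0.417 CPM). The vegetative markers summed to 51.2 to 71.5 CPM in in vitro sperm, 33.7 to 64.5 CPM in semi in vivo sperm and 18582 to 31828 CPM in vegetative nuclei.

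RAN1 and RAN2 were the RAN genes with appreciable counts, and their order was opposite in the 2 fractions. RAN1 was the main RAN transcript of vegetative nuclei and RAN2 that of sperm. In sperm from tubes that had passed through a pistil, RAN1 was 4.21-fold lower by mean CPM than in sperm from in vitro tubes. RAN2 and the importin alpha genes tested did not pass in that comparison, where the change of RAN1 itself was not tested.

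RAN1 stood at 43.4, 30.7 and 68.9 CPM in in vitro sperm libraries 1, 2 and 3. It stood at 10.12, 10.14 and 13.8 CPM in semi in vivo sperm. It stood at 522, 383 and 330 CPM in vegetative nuclei. The 3 groups did not overlap: every nucleus library was above every sperm library, and every in vitro sperm library was above every semi in vivo one. On the log2 scale with TMM scaling (trimmed mean of M-values, a correction for differing RNA composition), semi in vivo sperm were lower than in vitro sperm by a fitted change of -1.90 (SE 0.31). This change helped choose the set and carries no p. It ranged from -2.17, when in vitro sperm library 2 was left out, to -1.44, when in vitro sperm library 3 was left out. The median over all 14131 genes tested was -0.17, and RAN1 lay 1.73 below that median (log2fc less median -1.73).

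**Figure D1:**
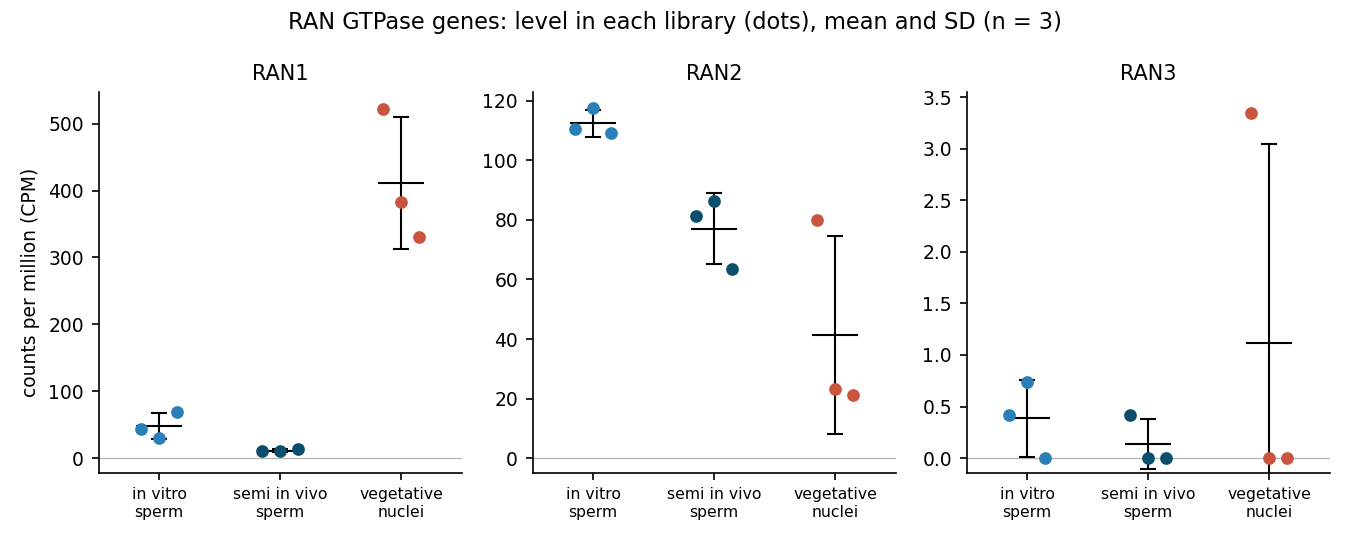
Level (CPM) of RAN1, RAN2 and RAN3 in each library (dots) of in vitro sperm, semi in vivo sperm and vegetative nuclei, with the mean and SD of 3 libraries and a separate linear axis for each gene; SD bars that would pass below 0 are clipped by the axis. RAN1 lies at 330 to 522 CPM in nuclei and at 10.12 to 13.8 CPM in semi in vivo sperm, while RAN2 is highest in in vitro sperm.

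RAN2, whose protein is a close relative of RAN1, stood at 111, 117 and 109 CPM in in vitro sperm. It stood at 81.1, 86.3 and 63.6 CPM in semi in vivo sperm. It stood at 79.8, 23.3 and 21.3 CPM in vegetative nuclei. All in vitro sperm libraries were above all others, and nucleus library 1 overlapped the semi in vivo sperm range. Semi in vivo and in vitro sperm did not overlap for RAN2, but the fitted log2 change of -0.36 (SE 0.19) did not pass the test (edgeR quasi-likelihood, Benjamini-Hochberg adjusted p = 0.693). The difference between the changes of RAN1 and RAN2 was not tested.

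RAN3, the remaining RAN gene of the set, stood at 0.415, 0.740 and 0 CPM in in vitro sperm, at 0.417, 0 and 0 CPM in semi in vivo sperm, and at 3.34, 0 and 0 CPM in vegetative nuclei. It was listed at 0 in 5 of 9 libraries, and no call was made in either comparison (adjusted p = 0.999 and 0.843). RAN4 stayed at or below 0.494 CPM in every library.

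Between vegetative nuclei and in vitro sperm, the mean of RAN1 was 8.63-fold higher in nuclei (412 ± 99.0 against 47.7 ± 19.4 CPM, SD, n = 3 each). The fitted log2 change of in vitro sperm against nuclei was -2.20 (SE 0.54, edgeR adjusted p = 0.0172). The in vitro sperm libraries used here are also those of the comparison that chose RAN1. The median of all 14061 genes tested was 1.70 on this scale, and RAN1 lay at -3.90 relative to it. The call was lost without in vitro sperm library 1 (adjusted p = 0.0685) and without in vitro sperm library 2 (0.0522), at log2 changes of -2.01 and -2.02. When semi in vivo sperm took the place of in vitro sperm, the fitted change was -4.33 and the mean CPM of nuclei was 36.3-fold that of sperm; no p is given, since the low semi in vivo values chose RAN1.

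RAN2 moved the other way, with a mean 2.71-fold higher in in vitro sperm than in nuclei and a fitted log2 change of 2.28 (SE 0.76, edgeR adjusted p = 0.0439). Relative to the median of all genes this was 0.58. The call passed in 6 of 17 alternatives and depended on the scaling: the adjusted p was 0.0635 with RLE factors, 0.0958 with upper-quartile factors, 0.114 with library totals and 0.105 with factors from well-counted genes. It also failed without any of the in vitro sperm libraries and without nucleus library 2 or 3 (adjusted p 0.0725 to 0.103), and the log2 change stayed between 1.44 and 3.04. RAN2 was likewise not called with no expression filter or when semi in vivo sperm took the place of in vitro sperm. In both of these its unadjusted edgeR p was not under 0.05.

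Per kilobase of exon, RAN1 was 0.314, 0.210 and 0.506 of RAN2 in in vitro sperm libraries 1, 2 and 3. The ratio was 0.0999, 0.0941 and 0.173 in semi in vivo sperm. It was 5.23, 13.2 and 12.4 in vegetative nuclei. RAN2 therefore exceeded RAN1 in all 6 sperm libraries and RAN1 exceeded RAN2 in all 3 nucleus libraries. The RAN total of 4 genes was 161 ± 15.2 CPM in in vitro sperm, 88.5 ± 9.92 CPM in semi in vivo sperm and 454 ± 133 CPM in nuclei (mean ± SD, n = 3 each). Both the lower ratio and the lower total of semi in vivo sperm contain the fall of RAN1 that chose the set.

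In the TAIR10.1 reference annotation, RAN2 is the next gene downstream of RAN1 on chromosome 5. Both coding sequences are 666 bases long, 94.28% of their aligned bases are identical, and the longest run they share is 65 bases. RAN3 has the same coding length and shares 86.94% of bases with RAN1 and 87.39% with RAN2. How reads matching more than 1 place were counted is not given in the sources used here, so the split between RAN1 and RAN2 carries that uncertainty.

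RAN1 in sperm was set beside the 12 vegetative cell markers, since it is abundant in the vegetative fraction. In in vitro sperm, RAN1 stood at 11.6% of its nucleus mean, with libraries from 7.47% to 16.7%. In semi in vivo sperm it stood at 2.75%, with libraries from 2.46% to 3.34%. ACT11, the actin gene whose promoter drives the red histone, was at 3.96% in in vitro and 3.89% in semi in vivo sperm, and ANX1, a receptor kinase of tube integrity, at 1.73% and 1.89%. The other 10 markers were at or below 0.280% in both sperm groups, and AHA8, a plasma membrane proton pump, was at 0.00932% and 0.0109%. Mean percentages were higher in semi in vivo sperm for ANX1, ANX2, PPME1 and AHA8, and lower for the other markers. COBL10 went from 0.229% in in vitro to 0.0361% in semi in vivo sperm, and MYB120 from 0.195% to 0.00831%. CHX23 went from 0.0378% to 0.0160%, and none of these 3 overlapped between the sperm groups. RAN1 thus stood above all 12 markers in in vitro sperm and between ACT11 and ANX1 in semi in vivo sperm. Between semi in vivo and in vitro sperm, 0 of 9 vegetative markers tested were called by edgeR, DESeq2 or limma-voom, with 1, 2 and 1 at an unadjusted p under 0.05, and their median log2 change in edgeR was -0.98. Markers of the vegetative cell at 0 numbered at most 2 of 12 in any sperm library. The part of vegetative RNA in the difference of RAN1 was not tested.

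**Figure D2:**
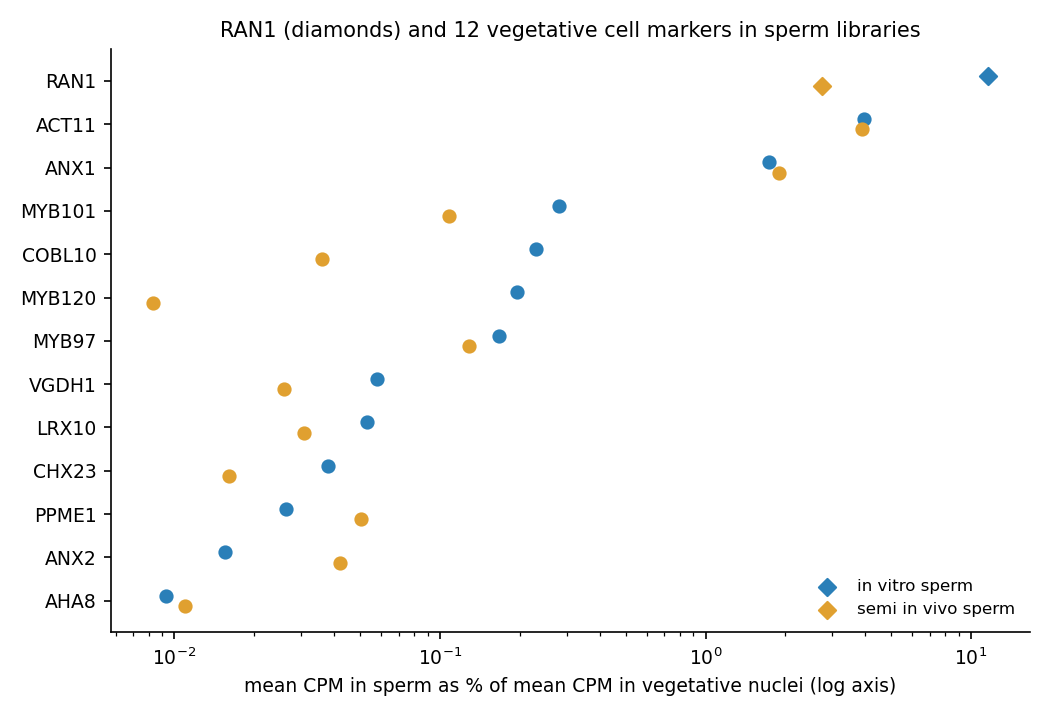
Mean level in in vitro sperm and in semi in vivo sperm as a percentage of the mean in vegetative nuclei (log axis) for RAN1 (diamonds) and 12 vegetative cell markers (circles). RAN1 stands at 11.6% and 2.75%, whereas ACT11 stands at 3.96% and 3.89% and the other markers lower.

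Among the importin alpha genes, IMPA-3, IMPA-5 and IMPA-9 were found in all sperm libraries and were absent or near absent from nuclei. IMPA-4 had the highest importin alpha level in every nucleus library, followed by IMPA-7. IMPA-1, IMPA-2 and IMPA-6 were low throughout, at no more than 7.08 CPM. None of the importin alpha genes tested between semi in vivo and in vitro sperm passed, and IMPA-2 was not tested there.

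IMPA-3, known as MOS6 from its part in plant immunity, stood at 97.5, 87.1 and 106 CPM in in vitro sperm. It stood at 111, 130 and 100.4 CPM in semi in vivo sperm. It stood at 0.145, 3.67 and 0.0366 CPM in vegetative nuclei. The sperm groups overlapped, and every sperm library was above every nucleus library. In vitro sperm exceeded nuclei by a fitted log2 change of 7.27 (SE 1.69, edgeR adjusted p = 0.0145), or 75.4-fold by mean CPM. The call passed in all 17 alternatives, and the change was 10.94 without nucleus library 2, which held 129 of the 132 nucleus counts. IMPA-3 overlaps a gene on its own strand (AT4G02140) that reached at most 3.67 CPM in any library.

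IMPA-5 stood at 54.5, 53.0 and 50.1 CPM in in vitro sperm. It stood at 49.5, 53.6 and 46.1 CPM in semi in vivo sperm. No count of it was found in any nucleus library, which allows levels of up to 0.218, 0.0853 and 0.110 CPM in nucleus libraries 1, 2 and 3 (3 counts each). With TMM scaling, in vitro sperm were at least 2702-fold higher than nuclei, against a floor of 3 counts over the 3 nucleus libraries. The log2 of this bound ran from 10.33 to 11.52 over 14 alternatives, with 10.39 for library totals. This contrast chose the gene and carries no p. Between semi in vivo and in vitro sperm, the log2 change was 0.11 (SE 0.20, edgeR adjusted p = 0.999), and the libraries of the 2 groups overlapped. The sperm values in this contrast are among those that chose IMPA-5, so it is not independent of that choice.

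IMPA-9, an importin alpha of divergent sequence, stood at 20.2, 23.7 and 21.9 CPM in in vitro sperm. It stood at 26.6, 32.3 and 27.2 CPM in semi in vivo sperm. In nuclei, 1 count was found in library 3 (0.0366 CPM) and none in the others. In vitro sperm held 2054 counts, a ratio to nuclei of 1708 scaled by library totals (counting interval 306 to 67507) and of 3599 with TMM scaling (645 to 142212; edgeR adjusted p = 0.0012). The call passed in all 17 alternatives. Every semi in vivo sperm library was above every in vitro one, but the log2 change of 0.58 (SE 0.23) did not pass (adjusted p = 0.419).

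IMPA-4, which in plants is best known for carrying Agrobacterium proteins and the transferred DNA into the nucleus, had the reverse pattern. It stood at 43.7, 60.8 and 149 CPM in vegetative nuclei. It stood at 2.42, 2.59 and 0 CPM in in vitro sperm, and at 0.542, 0.948 and 2.01 CPM in semi in vivo sperm. Every nucleus library was far above every sperm library, with a mean 50.6-fold that of in vitro sperm. The fitted log2 change of in vitro sperm against nuclei was -4.69 (SE 1.63) and missed the threshold (edgeR adjusted p = 0.0516). The threshold was passed in 13 of 17 alternatives, with p from 0.00139 to 0.132, and when semi in vivo sperm were compared with nuclei the change was -5.31 (adjusted p = 0.00292). IMPA-4 overlaps a gene on the other strand (AT1G09280) that reached at most 3.67 CPM in any library.

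**Figure D3:**
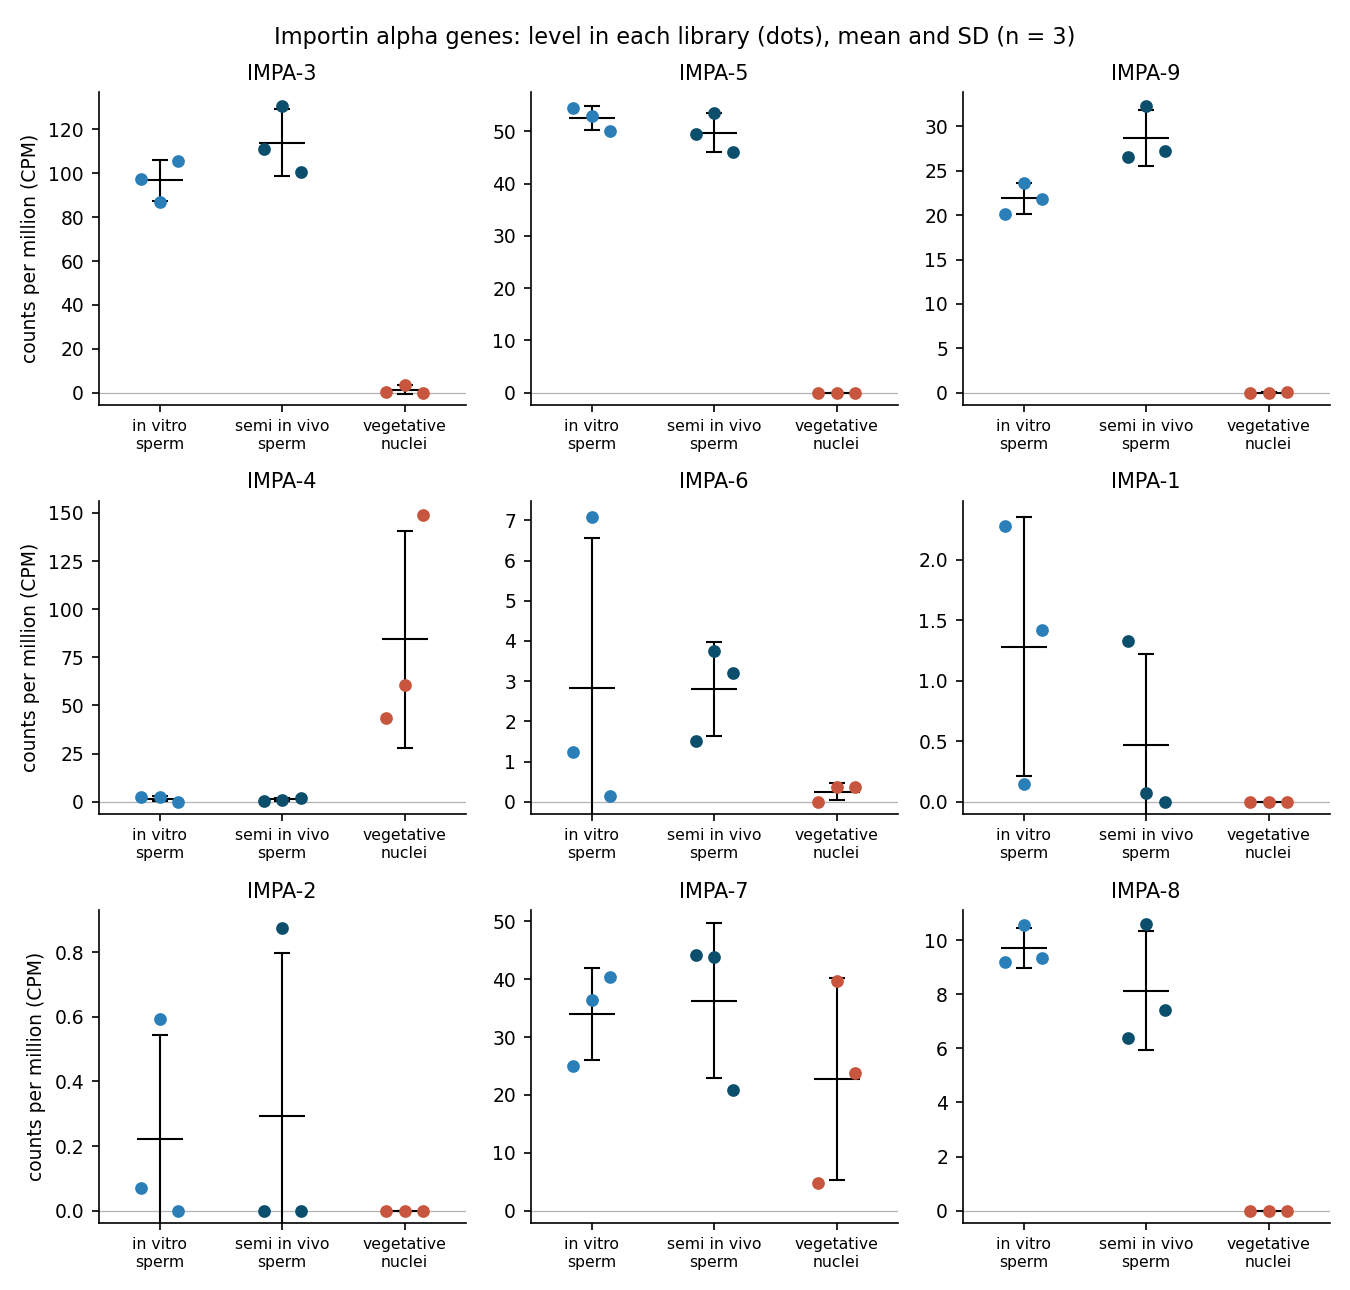
Level (CPM) of 9 importin alpha genes in each library (dots), with the mean and SD of 3 libraries; each gene has its own linear axis, and SD bars are clipped just below 0. IMPA-3, IMPA-5, IMPA-8 and IMPA-9 lie high in both sperm groups and at or near 0 in nuclei, while IMPA-4 lies at 43.7 to 149 CPM in nuclei and below 3 CPM in sperm.

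The low importin alpha genes gave no calls in the main fits, where IMPA-1 was tested between the sperm groups only. IMPA-6 stood at 1.24, 7.08 and 0.136 CPM in in vitro sperm, at 1.4996, 3.75 and 3.19 CPM in semi in vivo sperm, and at 0, 0.370 and 0.366 CPM in nuclei. In vitro sperm overlapped the nuclei, and the log2 change of 4.66 (SE 2.02) did not pass (adjusted p = 0.104). IMPA-1 stood at 2.28, 0.148 and 1.42 CPM in in vitro sperm and at 1.33, 0.0730 and 0 CPM in semi in vivo sperm, with no counts in nuclei. It did not pass the filter on low counts for the comparison with nuclei. When all 9 libraries were fitted together, IMPA-1 was tested there and was among the 7 of 8 members called. IMPA-1 overlaps a gene on its own strand (AT3G06730) that reached at most 2.10 CPM in in vitro sperm and had no counts in the other groups. IMPA-2 reached at most 0.592 CPM in in vitro sperm and 0.876 CPM in semi in vivo sperm, was listed at 0 in nuclei, and passed the filter on low counts in neither comparison.

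Of the family genes outside the set, IMPA-8 resembled IMPA-5, with 9.19, 10.5 and 9.35 CPM in in vitro sperm, 6.37, 10.6 and 7.42 CPM in semi in vivo sperm and no counts in nuclei. In vitro sperm were at least 246-fold higher than nuclei scaled by library totals and at least 503-fold higher with TMM scaling (edgeR adjusted p = 0.00375), so IMPA-5 was not the single importin alpha gene with counts in sperm and none in nuclei. IMPA-7 was found in both fractions, at 25.0 to 40.4 CPM in in vitro sperm and 4.79 to 39.7 CPM in nuclei, with a log2 change of 1.66 (SE 0.81) that did not pass (adjusted p = 0.139). IMPA-7 overlaps SYP43 on the other strand, which stood at 9.01 to 24.3 CPM in nuclei, and the libraries keep no strand. Reads from the stretch that both genes share therefore cannot be told apart, and the length of that stretch was not measured.

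Across the set, RAN1 aside, 0 of 8 members tested were called between semi in vivo and in vitro sperm, where 0.630% of all genes tested were called (0.538% higher after growth through the pistil, 0.0920% lower). IMPA-9 and IMPA-3 were at an unadjusted p under 0.05 in edgeR, and DESeq2 and limma-voom also called 0 of 8, with 3 and 2 members at an unadjusted p under 0.05. Between in vitro sperm and vegetative nuclei, IMPA-5 aside, 4 of 7 members tested were called (RAN2, IMPA-3 and IMPA-9 higher in sperm, RAN1 lower). The in vitro sperm values of RAN1 in this count are also part of the fall that chose the set. In that comparison 44.9% of all genes tested were called, 30.7% higher and 14.3% lower in sperm, so the count of members called is no result about the set.

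The makeup of each family was compared per kilobase of exon. RAN1 gave 24.8 ± 8.28% of the RAN total in in vitro sperm, 10.8 ± 3.44% in semi in vivo sperm and 89.6 ± 5.42% in nuclei (mean ± SD, n = 3 each). RAN2 gave 74.7 ± 7.72%, 89.0 ± 3.26% and 10.1 ± 5.01% in the same order. RAN1 and RAN2 together thus made up nearly the whole RAN total in each group. The shift of shares between the sperm groups contains the fall of RAN1 that chose the set.

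For importin alpha, IMPA-3 gave 40.1 ± 3.64% of the total in in vitro sperm, 43.7 ± 1.21% in semi in vivo sperm and 1.23 ± 1.85% in nuclei. IMPA-5 gave 25.8 ± 2.08% and 22.7 ± 1.64% in the sperm groups. IMPA-7 gave 16.3 ± 3.28% and 15.9 ± 4.55%, IMPA-9 gave 9.33 ± 0.614% and 11.4 ± 1.06%, and IMPA-8 gave 6.05 ± 0.459% and 4.66 ± 0.873%. In nuclei, IMPA-4 gave 75.2 ± 18.5% and IMPA-7 gave 23.3 ± 16.6%. Sperm thus held a mixture of 5 importin alpha transcripts, while nuclei held mainly IMPA-4 with IMPA-7. The IMPA-7 shares may include reads of SYP43 from the stretch where the genes overlap. The importin alpha total of 9 genes was 221 ± 8.24 CPM in in vitro sperm, 242 ± 34.6 CPM in semi in vivo sperm and 109 ± 62.2 CPM in nuclei.

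**Figure D4:**
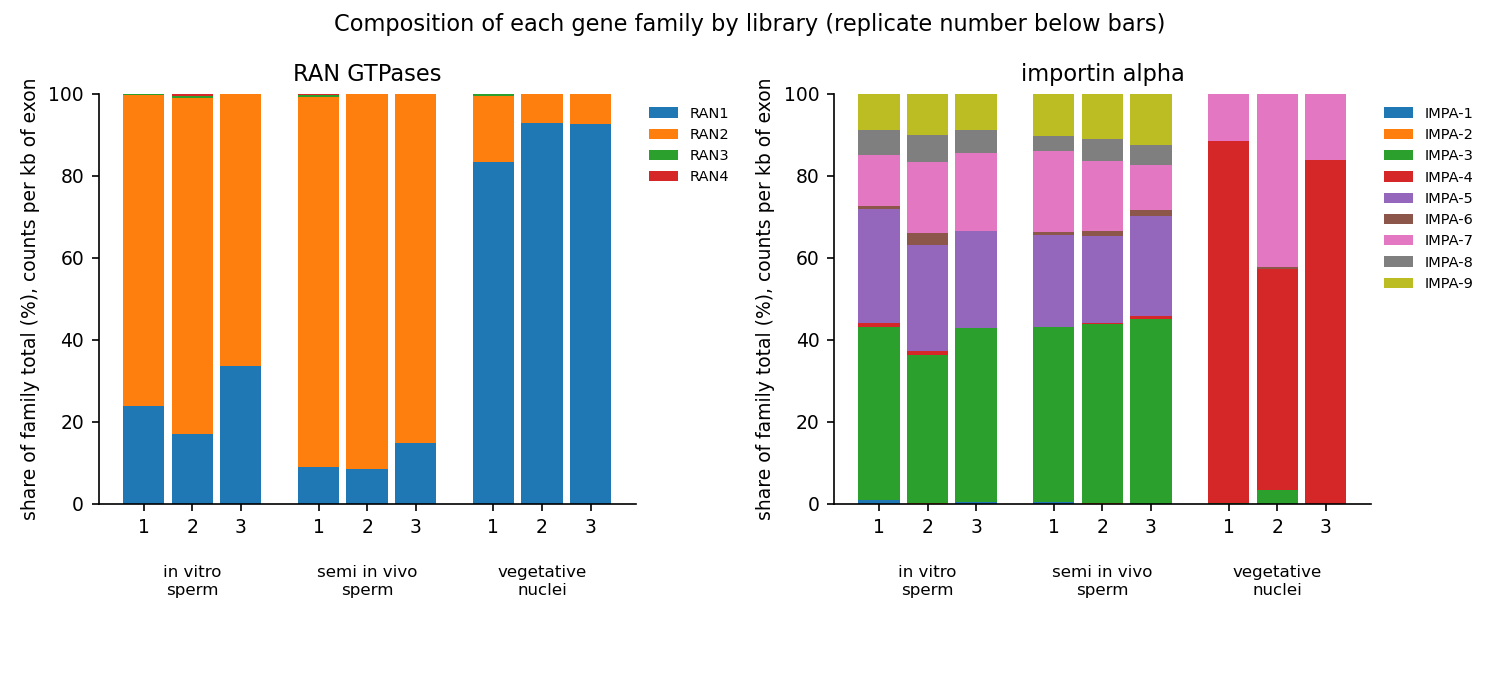
Share of each gene in the summed counts per kilobase of exon of 4 RAN genes (left) and 9 importin alpha genes (right), in each library, with the replicate number below each bar. RAN2 and IMPA-3 are the largest parts in sperm, and RAN1 and IMPA-4 the largest in all 3 nucleus libraries.

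The order of levels per kilobase of exon in in vitro sperm was RAN2 (92.4 ± 3.69 CPM per kb), IMPA-3 (45.8 ± 4.41), RAN1 (31.4 ± 12.8), IMPA-5 (29.4 ± 1.25), IMPA-7 (18.7 ± 4.395), IMPA-9 (10.7 ± 0.854) and IMPA-8 (6.90 ± 0.524). RAN1 overlapped both of its neighbours in this order, IMPA-3 and IMPA-5, and the other neighbours listed did not overlap between libraries. In semi in vivo sperm RAN1 had moved below IMPA-9, to 7.46 ± 1.38 CPM per kb against 14.0 ± 1.52, without overlap, and RAN2 (63.3 ± 9.76) overlapped IMPA-3 (53.9 ± 7.20). The lower place of RAN1 restates the fall that chose the set. In nuclei RAN1 (271 ± 65.2 CPM per kb) stood above all, and IMPA-4 (38.7 ± 25.8), RAN2 (34.1 ± 27.3) and IMPA-7 (12.5 ± 9.62) overlapped.

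The other genes of nuclear transport were read in 5 lists: 7 genes of the RAN cycle, 11 of the importin beta family, 7 exportins, 30 nucleoporins and 7 nuclear envelope anchors. Between semi in vivo and in vitro sperm, 2 of the 49 genes tested in these lists were called, both higher, against 0.538% of all genes called higher. RANBP1b (AT2G30060), a RAN-binding protein that aids GTP hydrolysis on RAN, rose from 7.40 ± 2.85 to 22.4 ± 2.48 CPM (log2 change 1.79, SE 0.30, edgeR adjusted p = 0.0102). SUN2, an inner nuclear envelope protein that links the nucleus to the cytoskeleton, rose from 24.6 ± 3.50 to 50.9 ± 9.83 CPM (log2 change 1.24, SE 0.24, adjusted p = 0.0225). RANGAP1, which turns RAN to its GDP form, stood at 71.8 ± 18.9 and 69.4 ± 4.29 CPM and did not pass (adjusted p = 0.999). RANBP1b passed in 15 of 16 alternatives and SUN2 in 14, both failing when all 9 libraries were fitted together and SUN2 also with library totals only. Of 9 importin beta genes, 5 exportins and 24 nucleoporins tested, edgeR, DESeq2 and limma-voom called 0, and 2, 0 and 1 of them were at an unadjusted p under 0.05 in edgeR.

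Between in vitro sperm and nuclei, 1 of 5 RAN cycle genes tested was called, higher in sperm, where 30.7% of all genes were called higher, and the list's median log2 change was -0.68 against 1.70 over all genes. That gene was RANGAP1, at 71.8 ± 18.9 CPM in in vitro sperm and 3.26 ± 4.02 CPM in nuclei (log2 change 5.50, SE 1.19, adjusted p = 0.0113). RANGAP1 was thus higher in in vitro sperm than in nuclei, as was RAN2 by mean CPM, while RAN1 was lower. Relations between these genes were not tested.

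Of 8 importin beta genes tested, 5 were higher in sperm and none lower, against 30.7% and 14.3% of all genes, with a median of 6.10 against 1.70. TRN1, a transportin, stood at 176 ± 20.9 CPM in in vitro sperm and 7.24 ± 2.26 CPM in nuclei (log2 change 5.56, SE 0.63, adjusted p = 0.00107). IMB2 stood at 10.3 ± 1.56 CPM in in vitro sperm and had 2 counts in nuclei, a ratio of 410 scaled by library totals (counting interval 113 to 3387) and of 863 with TMM scaling (238 to 7135; adjusted p = 0.00381). Of 6 exportins tested, 1 was higher in sperm and none lower, against 30.7% and 14.3% of all genes, with a median of 2.005 against 1.70. It was XPO1B, one of a pair of exportin 1 genes, at 224 ± 23.9 CPM in in vitro sperm and 3.06 ± 1.84 CPM in nuclei (log2 change 7.20, SE 0.74, adjusted p = 0.000877). XPO1A, the other copy, stood at 9.97 ± 2.38 and 3.36 ± 4.22 CPM and did not pass (adjusted p = 0.111).

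Of 25 nucleoporins tested, 10 were higher and 2 lower in sperm, against 30.7% and 14.3% of all genes, with a median of 3.11 against 1.70. SEH1, of the outer ring of the pore, stood at 30.6 ± 12.9 CPM in in vitro sperm with 1 count in nuclei, a ratio of 2033 scaled by library totals (counting interval 365 to 80351) and of 4284 with TMM scaling (768 to 169271; adjusted p = 0.000973). ALADIN stood at 10.9 ± 2.39 CPM with 1 count in nuclei, a ratio of 778 scaled by library totals (counting interval 139 to 30780) and of 1640 with TMM scaling (294 to 64843; adjusted p = 0.0018). NUA, of the nuclear basket, was lower in sperm, at 6.61 ± 3.57 against 77.7 ± 18.8 CPM in nuclei (log2 change -2.50, SE 0.71, adjusted p = 0.0237). NUP35 was lower too, at 0.0446 ± 0.0572 against 4.74 ± 1.52 CPM (log2 change -5.49, SE 1.64, adjusted p = 0.0293). NUA passed in 12 of 17 alternatives and NUP35 in 8 of 16, and without in vitro sperm library 1 there were 7 nucleoporins called higher and 0 lower.

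Of 5 envelope anchors tested, 3 were higher in sperm and none lower, against 30.7% and 14.3% of all genes, with a median of 2.56 against 1.70. SUN1 stood at 558 ± 81.3 CPM in in vitro sperm and 24.7 ± 7.52 CPM in nuclei (log2 change 5.49, SE 0.50, adjusted p = 0.000627). WIP2, which with its relatives ties RANGAP to the nuclear envelope, stood at 376 ± 62.5 and 130 ± 72.9 CPM (log2 change 2.56, SE 0.55, adjusted p = 0.011). WIP2 failed with library totals only and with no expression filter, at an adjusted p of up to 0.137.

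**Figure D5:**
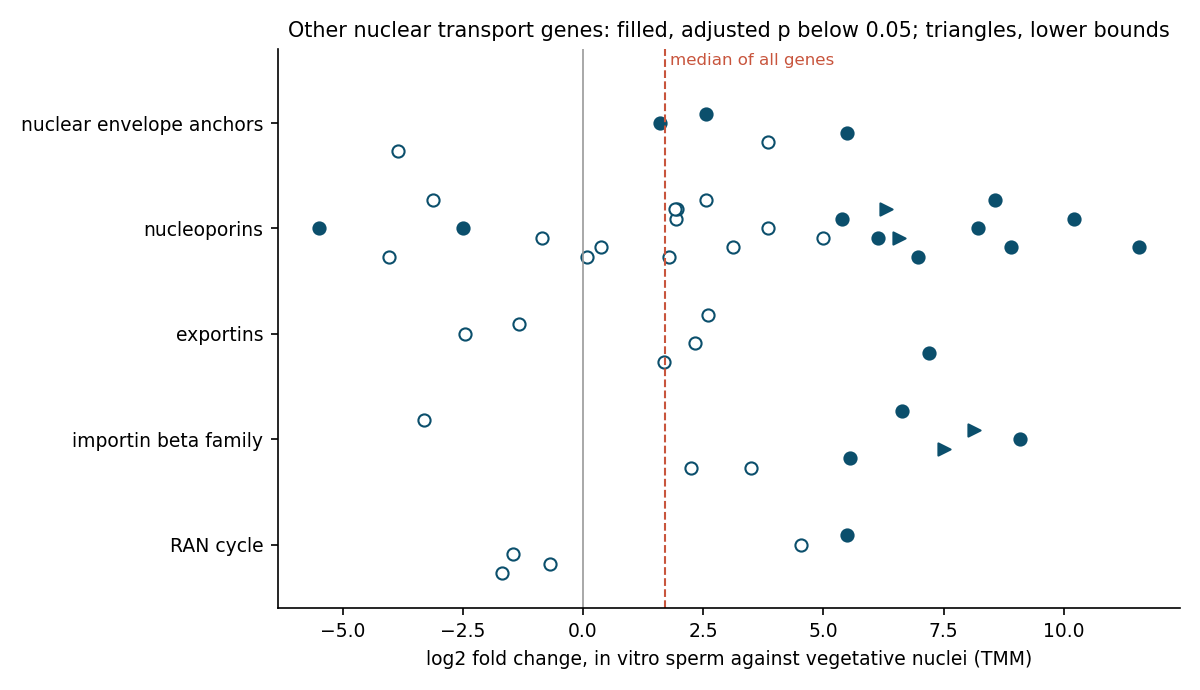
Log2 fold change of in vitro sperm against vegetative nuclei for each tested gene of 5 nuclear transport lists; filled points passed an adjusted p of 0.05, open points did not, and triangles are lower bounds for genes with no counts in nuclei. The dashed line marks the median of all genes, 1.70, and 5 importin beta genes and 10 nucleoporins lie to its right as called genes.

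The genes whose pattern over the 9 libraries was most like that of RAN1 and IMPA-5 were taken by the root-mean-square difference of centred log2 CPM among 6274 genes. Nearest to RAN1 were GDPD2 (AT5G41080, a phosphodiesterase-like gene, difference 0.318), AT4G34630 (0.417) and AT2G45610 (an alpha/beta-hydrolase, 0.504), against a median of 2.89 over all genes searched. GDPD2 stood at 9.92 to 24.4 CPM in in vitro sperm, 2.72 to 3.74 CPM in semi in vivo sperm and 130 to 165 CPM in nuclei. Its order of the 3 groups is that of RAN1, which follows from how GDPD2 was taken. Nearest to IMPA-5 were AT3G25480 (a rhodanese-like gene, difference 0.148), PPX2 (AT5G55260, a protein phosphatase, 0.172) and ERF10 (AT1G03800, an ethylene response factor, 0.208), against a median of 4.68. All 3 stood between 34.6 and 54.7 CPM in sperm and had no counts in nuclei, which likewise follows from how they were taken. The patterns matched include the values that chose RAN1 and IMPA-5.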

How the data were processed

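Deposited raw counts per gene were used; per the submitters' processing notes, the authors trimmed reads with Trim Galore, aligned them with HISAT2 to TAIR10 and counted them with featureCounts, while versions, the strand setting and the handling of multi-mapping reads were not given in the sources used here. Per the labels' protocols, libraries were made by Smart-seq2, which amplifies by PCR without molecular identifiers and keeps no strand, so floors and counting intervals cover counting error only. Each comparison was fitted on its own 6 libraries over the whole table with edgeR 4.0.16 in R 4.3.3 (filterByExpr with a minimum count of 10, TMM factors, robust quasi-likelihood F test, Benjamini-Hochberg adjustment, threshold 0.05). The script was tested on simulated data. Alternatives were other scalings and filters, DESeq2 1.42.0, limma-voom (limma 3.58.1), a replicate block, all 9 libraries in 1 fit and each library left out. Levels per library are counts over the library total. Standard errors come from the log2 change and the F statistic. A fold against a group with no counts uses 3 counts over that group.

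Exon lengths, coding identity and neighbours come from the TAIR10.1 annotation, which held all 108 listed loci, and since the counts were made on TAIR10, no coordinates or sequences are given. The members and lists were chosen with earlier results of these data known. All members were named, and for each transport list up to 2 called genes per direction with the smallest adjusted p; RANGAP1 between the sperm groups and XPO1A were added after their values were seen. For RAN1 and IMPA-5, the 3 nearest patterns among genes with a mean of at least 10 CPM in a group were named. Nothing in the labels says that replicates came from separate plants or assays, and p-values then measure the spread among these libraries alone, which may be technical. No 2 libraries of a group were duplicates (chi-square per gene 25.3 to 369).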

Additional observations from a re-analysis of the deposited data

How the results depend on the processing

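The number of genes called between semi in vivo and in vitro sperm (89) depended on the processing: it was 38 with library totals only, 150 with no expression filter, 165 with a filter of 5 CPM, 347 with DESeq2 and 0 with all 9 libraries in 1 fit, and 51 to 123 with 1 library left out. The share of these calls that was higher was 85.4%, but 63.2% with library totals, 72.1% with the 5 CPM filter and 51.0% with DESeq2. Between in vitro sperm and nuclei (6320 called), leaving out a library gave 3552 to 5854, the lowest without in vitro sperm library 1; higher calls made up 68.3%, and 58.2% with library totals, 56.4% with the 5 CPM filter and 50.8% with no filter. The members called there (4) were 6 with DESeq2, 7 with all 9 libraries in 1 fit, and 2 to 5 with 1 library left out, the lowest again without in vitro sperm library 1. In the comparison of sperm groups the members called were 0 under every alternative run. The cause of these differences was not tested.

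Whether replicate numbers pair the libraries cannot be settled from 3 libraries per group. Deviations of same-numbered libraries correlated at -0.0061, 0.064 and 0.17 between the sperm groups. Between sperm and nuclei they correlated at 0.023, 0.066 and 0.0044. Some libraries, but not all, correlated best with their own number. With the replicate block, 223 genes were called between the sperm groups and 5790 between sperm and nuclei, with 0 and 5 members. Scaling moved the median log2 change of all genes from 1.70 to between 0.66 and 1.57 between sperm and nuclei, and from -0.17 to between -0.36 and -0.24 between the sperm groups. Of the fold changes of members, IMPA-7 and IMPA-8, 300 values were read as unchanged. Another 16 passed the threshold where the reported one did not, 13 lost it and 7 values of the IMPA-5 bound moved. Unchanged tested values kept their side of the threshold (uncalled ones such as RAN3 could change sign). RAN1 between the sperm groups and the IMPA-5 bound carry no test, and unchanged there means a shift smaller than the SD between libraries. Counts of RAN3, IMPA-1 and IMPA-2 were low and uneven between libraries, and the part of depth in this was not tested.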
